A study of Mus musculus with 12 samples.

Results

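The secreted and membrane-bound metalloproteases that cut the extracellular matrix, and the proteins that inhibit them, were examined in mouse tumours treated with cisplatin, brivanib or both. Members were all protein-coding genes of the deposited table named as matrix metalloproteinases (Mmp), tissue inhibitors of metalloproteinases (Timp) or members of the Adamts and Adamtsl families. This gave 50 of the 53801 genes in the table: 22 Mmp, 4 Timp, 19 Adamts and 5 Adamtsl genes. The tumours were grown from LLC (Lewis lung cancer) cells, a mouse carcinoma line, mixed in Matrigel and injected at 3000000 cells into each flank of female C57BL/6 mice aged 6 to 8 weeks, with 6 mice and 10 to 12 tumours per group. From a tumour volume of at least 100 mm3 on, mice received intraperitoneal injections of 100 µL, 2 times a week for 4 weeks. The 4 groups received vehicle, the DNA-binding platinum compound cisplatin, the VEGF receptor inhibitor brivanib, or both drugs combined. Drug doses were not in the sources used here. Each group had 3 sequenced libraries, named here by group and the number in the labels (vehicle 2, 3 and 5, cisplatin 1, 2 and 3, brivanib 2, 3 and 5, combination 2, 3 and 4). The labels do not say that the libraries of a group came from separate mice, so each p-value is set by how far these libraries spread, and part of that spread may be technical.

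Mmp enzymes are made as inactive precursors and, once activated, cut collagens, elastin, laminins and other matrix proteins with a zinc ion held by conserved histidines. Timp proteins bind the active site of these enzymes, and Timp3 also inhibits several Adamts proteases. Adamts enzymes trim procollagens, cleave cartilage-type proteoglycans or process other matrix proteins, whereas Adamtsl proteins share the domains outside the protease but lack the protease itself. In tumours, much of this system is made by fibroblasts, macrophages and other host cells as well as by the cancer cells.

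The zinc site shows what separates the proteases from their inhibitors and relatives in this gene set. A script translated the members' coding transcripts of the GENCODE annotation (release 21, build GRCm38) and searched for histidine, glutamate, any pair of residues, histidine, any pair, glycine or asparagine, any pair and histidine. The motif was present in 22 of 22 Mmp genes and 18 of 19 Adamts genes, and in 0 of 5 Adamtsl and 0 of 4 Timp genes. The Adamts gene without a match was Adamts8. The residue before the last pair was glycine in all 22 Mmp genes and in 13 Adamts genes, and asparagine in 5 Adamts genes. The codons of the site are shown for the proteases that the comparisons turn on and for their most abundant relatives, 5′ to 3′ on the coding strand, with the 3 histidine codons in capitals.
Mmp2: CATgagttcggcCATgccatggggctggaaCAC
Mmp14: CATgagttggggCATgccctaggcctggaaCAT
Mmp23: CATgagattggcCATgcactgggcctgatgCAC
Mmp12: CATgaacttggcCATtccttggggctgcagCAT
Mmp13: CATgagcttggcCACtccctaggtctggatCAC
Mmp3: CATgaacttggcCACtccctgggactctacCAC
Mmp19: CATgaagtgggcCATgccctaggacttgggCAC
Adamts2: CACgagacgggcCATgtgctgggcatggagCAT
Adamts14: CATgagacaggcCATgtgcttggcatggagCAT
Mmp2 and Mmp14 shared 27 of these 33 bases, Mmp2 and Mmp23 shared 25, and Mmp12 and Mmp13 shared 25. Adamts2 and Adamts14, both procollagen N-proteinases, shared 30, and Mmp2 and Adamts2 shared 22. The site begins at residue 403 of Mmp2, 239 of Mmp14, 212 of Mmp23, 222 of Mmp12, 223 of Mmp13, 220 of Mmp3, 213 of Mmp19, 409 of Adamts2 and 388 of Adamts14, counted from the first amino acid of the precursor.

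The region upstream of the start sites separates a second group, the Mmp genes that lie together on chromosome 9. These 9 genes, Mmp13, Mmp12, Mmp1b, Mmp3, Mmp10, Mmp8, Mmp27, Mmp20 and Mmp7, lie within 427.1 kb (chr9:7272514-7699585 in the deposited coordinates, build GRCm38), all on the plus strand except Mmp1b. RefSeq promoter sequences (GRCm38.p6) matched 35 of the 50 members. The 250 bases upstream of each start were searched for short words, on both strands except for the TATA word. That word was searched on the gene's strand alone. The AP-1 word, TGAGTCA or its reverse complement TGACTCA, is the binding word of Fos and Jun factors. It was found before 6 of the 35 members, and all 6 (Mmp10, Mmp12, Mmp13, Mmp1b, Mmp3 and Mmp7) belonged to the 9 genes of the cluster, against 4.46% of all 32851 promoters in the reference. A TATA word (TATAAA) was found before 6 of the 9 cluster genes and 7.59% of all promoters, and an ETS word (AGGAAG or CTTCCT) before 6 of the 9 and 29.48% of all. A GC box (GGGCGG or CCGCCC) was found before 0 of the 9 cluster genes, 20 of the 35 members and 32.74% of all promoters. The last 120 bases before the start are shown for cluster genes that the results below refer to and for Timp1, the most abundant gene that rose, 5′ to 3′ on the gene's strand with AP-1 and TATA words in capitals.
Mmp13, chr9:7272394-7272513, plus strand: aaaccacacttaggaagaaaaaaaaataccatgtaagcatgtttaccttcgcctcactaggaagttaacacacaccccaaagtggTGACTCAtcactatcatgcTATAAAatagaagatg
Mmp12 (the downstream of its 2 listed starts), chr9:7347254-7347373, plus strand: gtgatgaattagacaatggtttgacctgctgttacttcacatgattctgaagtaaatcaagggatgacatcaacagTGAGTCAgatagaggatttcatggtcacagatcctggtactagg
Mmp3, chr9:7445702-7445821, plus strand: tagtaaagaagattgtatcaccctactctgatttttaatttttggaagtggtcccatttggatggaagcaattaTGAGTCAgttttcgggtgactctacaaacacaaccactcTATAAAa
Mmp8, chr9:7558309-7558428, plus strand: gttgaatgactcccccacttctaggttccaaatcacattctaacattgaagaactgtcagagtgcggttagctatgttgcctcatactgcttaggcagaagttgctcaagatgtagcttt
Timp1, chrX:20870046-20870165, plus strand: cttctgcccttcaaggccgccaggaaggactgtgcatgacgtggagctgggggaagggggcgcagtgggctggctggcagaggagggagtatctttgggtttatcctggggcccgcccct
The AP-1 word starts at base -35 of Mmp13, -44 of Mmp12 and -46 of Mmp3, where -1 is the last base before the start. Mmp8 has no such word in this window. A match is a description of the letters and not a measured binding site.

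Levels are given as FPKM, fragments per kilobase of transcript scaled to the size of the library, which the authors deposited per transcript and which were summed here per gene. The libraries held 17160875 to 30942897 recovered fragments. Brivanib 5 stood apart, with 38.333% of its fragments on ribosomal-like features against 0.316 to 0.692% in the other 11 libraries. Skeletal muscle markers summed to 328.2 FPKM in brivanib 3, 286.7 in brivanib 5, 55.91 in combination 2 and 0.9291 to 25.79 in the others. Of the 9 lung and epithelial tumour markers looked at, 4 (Krt18, Nkx2-1, Sftpc and Scgb1a1) were listed at 0 in every library, and Cdh1 was at 1.116 to 3.231 FPKM. Because these are bulk tumours, fewer cells of a type and less RNA per cell cannot be told apart in any of the values below.

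Of the 50 members, 29 had a mean of at least 1 FPKM over the 12 libraries and entered the tests: 13 Mmp, 3 Timp, 10 Adamts and 3 Adamtsl genes. A further 5 reached 1 FPKM in some library, 13 stayed below it in every library, and 3 (Mmp7, Mmp20 and Adamts19) were listed at 0 throughout. A single membrane-bound protease and a single inhibitor led the set: Mmp14, which activates Mmp2 at the cell surface, and Timp2, which takes part in that activation as well as inhibiting the enzymes. Mmp14 was at 275, 217 and 203 FPKM in the vehicle libraries, 217, 193 and 248 with cisplatin, 212, 200 and 176 with brivanib and 181, 161 and 210 with the combination. Timp2 was at 155, 124 and 106 FPKM with vehicle, 159, 124 and 155 with cisplatin, 111, 141 and 120 with brivanib and 120, 127 and 153 with the combination. Both genes overlapped between all groups and neither passed the test in any comparison. Mmp14 made up 52.5 to 73.8% of the summed Mmp FPKM of a library, the lowest share in brivanib 2 and the highest in vehicle 2.

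The remaining abundant members were Timp1, Adamts1 and Mmp3. Adamts1, which cleaves the proteoglycans aggrecan and versican, was at 87.7, 70.6 and 77.0 FPKM with vehicle, 85.0, 51.7 and 142 with cisplatin, 50.4, 71.1 and 44.3 with brivanib and 61.8, 90.2 and 94.4 with the combination. Its groups overlapped, and it gave 48.0 to 81.6% of the summed Adamts FPKM. The stromelysin Mmp11 ran from 16.7 to 31.3 FPKM, and the Adamtsl genes Adamtsl5 from 7.51 to 15.2, Adamtsl3 from 8.56 to 11.8 and Adamtsl4 from 3.27 to 7.72. The gelatinases differed in level: Mmp2 averaged 14.1 FPKM and Mmp9 2.54, with Mmp9 ranging from 0.602 to 5.52. The plot of levels by library shows this order.

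**Figure D1:**
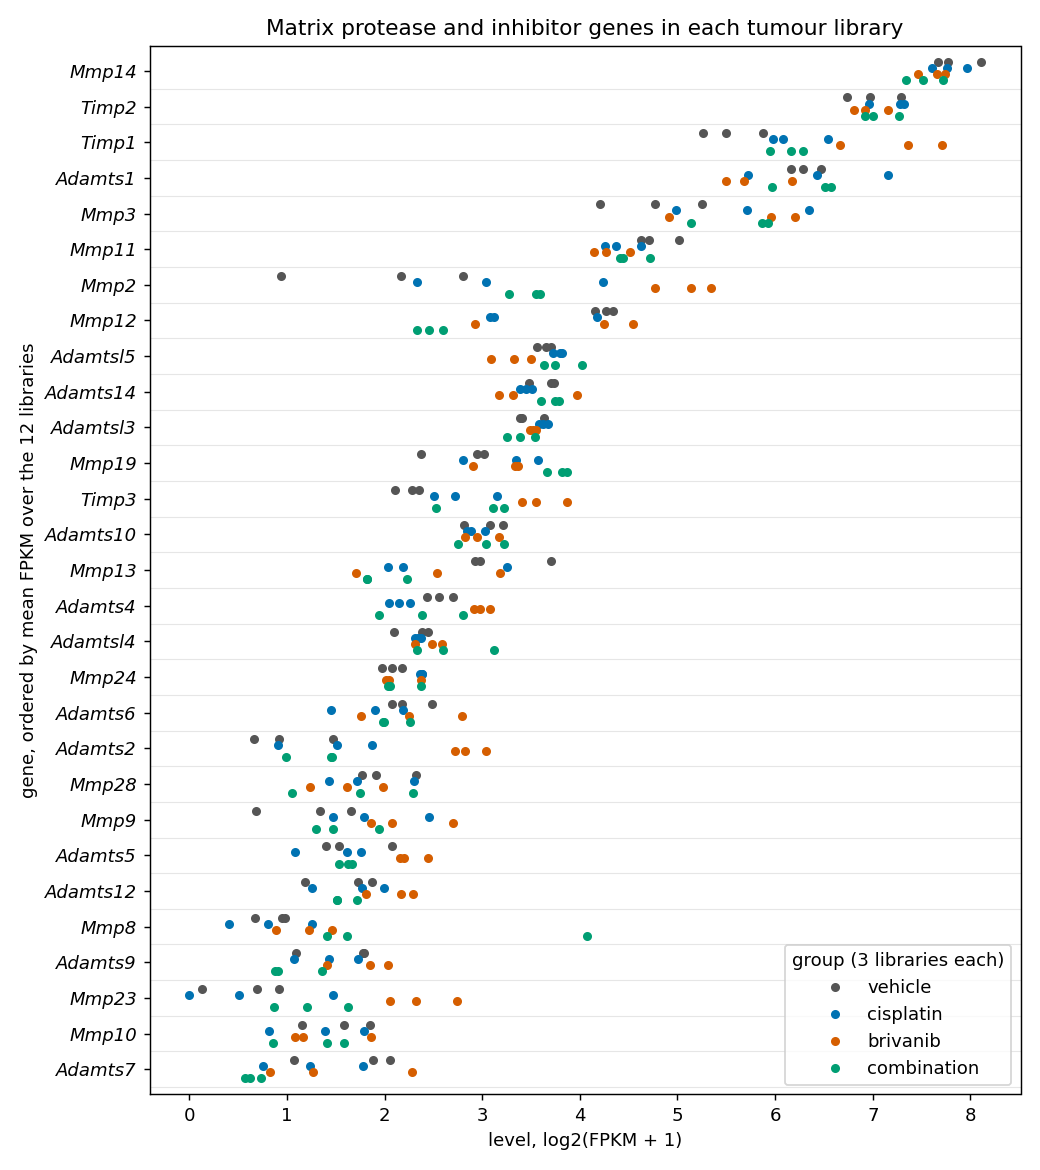
Level of each of the 29 tested matrix protease and inhibitor genes in each of the 12 libraries, as log2(FPKM + 1) on the horizontal axis, with genes ordered by mean FPKM and colours for the 4 groups. Mmp14 and Timp2 lead with overlapping groups, while the brivanib points of Timp1, Mmp2, Timp3, Adamts2 and Mmp23 lie to the right of the vehicle points.

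Brivanib alone gave the most calls among these genes. Expression of 2 inhibitors, Timp1 and Timp3, and of 3 proteases, Mmp2, Adamts2 and Mmp23, rose against vehicle, and no member fell. The 5 genes were 3.02 to 9.59 times as high in mean FPKM as with vehicle. Of the 29 tested members, 5 passed (limma on log2(FPKM + 1), Benjamini-Hochberg adjusted p below 0.05 over 14246 genes), against 1.81% of all tested genes called in either direction and 1.71% called higher. Mmp23 is counted among them although it passed the filter on low values only through its brivanib libraries. The median log2 fold change of the tested members was 0.07, against -0.01 for all genes, and 17 of the 29 had a positive value.

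Timp1, a secreted inhibitor of most Mmp enzymes, lies on chromosome X (20870166 to 20874735, plus strand). It was at 44.3, 37.4 and 57.7 FPKM with vehicle and at 208, 100 and 164 with brivanib, which is 46.5 ± 10.4 against 157 ± 53.9 (mean ± SD, n = 3 each). Each brivanib library lay above each vehicle library, and also above the cisplatin (92.5, 66.9 and 62.2) and combination (77.0, 60.7 and 70.8) libraries. The log2 fold change over vehicle was 1.70 ± 0.25 (SE, limma adjusted p = 0.00496). Its 2 protein-coding transcripts made up 61.1 and 38.9% of the gene's summed FPKM.

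Timp3, an inhibitor that stays bound to the matrix, lies on chromosome 10 (86300372 to 86349506, plus strand). It was at 3.85, 3.32 and 4.10 FPKM with vehicle and 13.6, 9.62 and 10.7 with brivanib. The groups did not overlap, and the cisplatin (7.89, 5.61 and 4.69) and combination (7.65, 8.33 and 4.78) libraries lay between them. The log2 fold change over vehicle was 1.36 ± 0.21 (limma adjusted p = 0.00661), and the call was lost with libraries rescaled to equal FPKM totals (1.05, adjusted p = 0.0702). Timp3 lies inside the gene Syn3 on the opposite strand, and 1733 of its 8144 annotated exon bases are also exon of Syn3, which ran from 1.05 to 1.17 FPKM with vehicle and 3.13 to 4.06 with brivanib. No strand setting is given in the sources used here, so reads of these bases cannot be assigned to one strand. Timp1 also lies inside a gene on the opposite strand, Syn1, but shares 0 exon bases with it.

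Mmp2, the gelatinase that cuts denatured collagen and the collagen of basement membranes, lies on chromosome 8 (92827291 to 92853420, plus strand) and had the greatest fold change of the tested members. It was at 3.51, 0.922 and 5.98 FPKM with vehicle and 39.5, 34.1 and 26.3 with brivanib, or 3.47 ± 2.53 against 33.3 ± 6.64 (n = 3 each). Every brivanib library exceeded all 9 others, of which cisplatin 1 was the highest (17.8, 4.02 and 7.19 with cisplatin). The log2 fold change over vehicle was 3.11 ± 0.48 (limma adjusted p = 0.00652), and 96.7% of the gene's summed FPKM came from 1 protein-coding transcript. The other gelatinase, Mmp9, was at 0.602, 1.53 and 2.16 FPKM with vehicle and 3.22, 2.64 and 5.52 with brivanib. It did not pass (log2 fold change 0.99 ± 0.33, limma adjusted p = 0.222).

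Adamts2, which removes the N-terminal propeptide of fibrillar procollagens, lies on chromosome 11 (50602084 to 50807573, plus strand). It was at 0.893, 0.587 and 1.78 FPKM with vehicle and 7.24, 6.10 and 5.60 with brivanib, and at 2.66, 0.871 and 1.85 with cisplatin, so that no library outside brivanib reached the brivanib values. The log2 fold change over vehicle was 1.84 ± 0.27 (limma adjusted p = 0.00525). Adamts14, the second procollagen N-proteinase with a tested level, was higher in abundance but differed by only -0.16 ± 0.18 on the log2 scale (limma adjusted p = 0.798), with 7.98 to 14.7 FPKM in brivanib and 10.1 to 12.4 in vehicle libraries.

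Mmp23, a protease anchored in membranes through its own N-terminal segment, lies on chromosome 4 (155650655 to 155653384, minus strand) and was low. It was at 0.891, 0.0942 and 0.614 FPKM with vehicle and 5.67, 3.99 and 3.15 with brivanib, counted from 3 to 16 fragments in a vehicle library and 84 to 165 in a brivanib library. With cisplatin it was at 1.77, 0.419 and 0 FPKM and with the combination at 2.09, 0.827 and 1.31, so that the brivanib libraries were the 3 highest. Its protein-coding transcript made up 62.4% of the gene's summed FPKM, and the others are retained introns. The log2 fold change was 1.79 ± 0.36 (limma adjusted p = 0.0279), but Mmp23 averaged 0.891 FPKM outside the brivanib group and so reached the tests only through the group where it was high. The call was also lost with no filter on low values (adjusted p = 0.0554), with a pseudocount of 0.1 (0.169), with limma voom (0.0941) and without any single one of the 6 vehicle and brivanib libraries (0.0552 to 0.12). The calls of Timp1, Timp3, Mmp2 and Adamts2 remained without each library in turn, including brivanib 5.

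The Adamts genes that cleave proteoglycans or other cartilage proteins did not share a sign, and none passed. Positive differences were 0.60 ± 0.22 for Adamts5, 0.50 ± 0.23 for Adamts12 and 0.43 ± 0.19 for Adamts4 (log2, limma adjusted p = 0.28, 0.445 and 0.402). Negative ones were -0.52 ± 0.30 for Adamts1, the most abundant of them, and -0.21 ± 0.38 for Adamts7 (limma adjusted p = 0.555 and 0.888). Adamts5 was at 3.23, 1.63 and 1.90 FPKM with vehicle and 4.43, 3.60 and 3.47 with brivanib. Mmp11 had a negative difference of -0.47 ± 0.15 (limma adjusted p = 0.181). In all, 11 of the 29 tested members had an unadjusted p below 0.05 in this comparison.

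**Figure D2:**
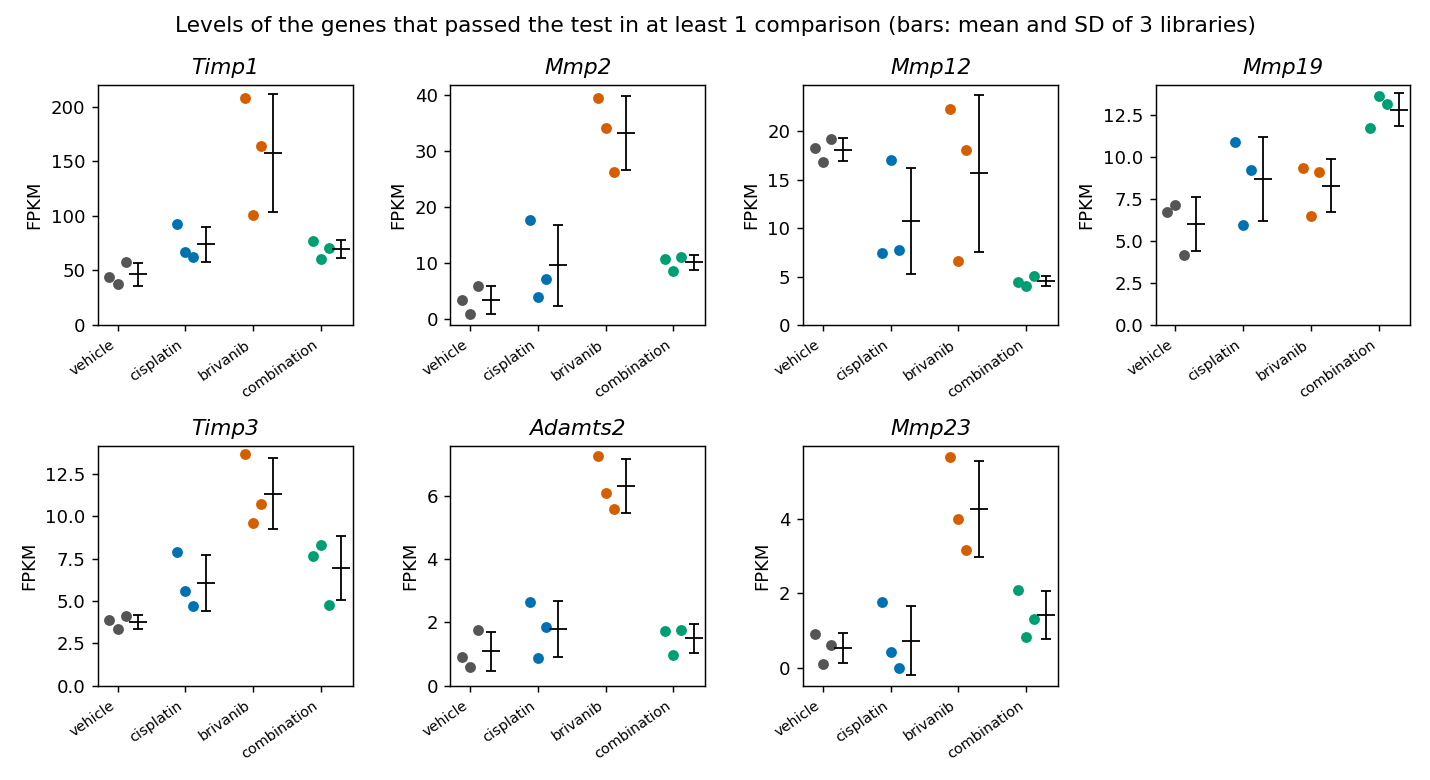
FPKM in each library of the 7 genes that passed the test in at least 1 comparison, with points for libraries and black bars for the mean and SD of 3 libraries in each of the 4 groups. Brivanib points are highest for Timp1, Mmp2, Timp3, Adamts2 and Mmp23, combination points are lowest for Mmp12 and highest for Mmp19.

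Markers of some host cell types were higher in the brivanib libraries, and those of others were not. In brivanib against vehicle, 1.71% of all tested genes were called higher. Of 12 tested fibroblast markers, 5 rose with brivanib over vehicle (Pi16, Clec3b, Fbln1, Mfap5 and Fbln2), none fell, and the list's median log2 fold change was 0.47 against -0.01 for all genes. The mean log2(FPKM + 1) of that list was 4.557 to 4.761 in the brivanib libraries, 2.895 to 3.478 with vehicle, 3.159 to 3.830 with cisplatin and 3.052 to 3.571 with the combination, and all 13 listed genes had fragments in each brivanib library. Its summed FPKM overlapped (535.2 to 791.1 with brivanib, 454.0 to 694.3 with vehicle). Abundant markers of the list also overlapped, with Col6a1 at 124 to 165 FPKM with brivanib and 133 to 188 with vehicle. Lum was at 107 to 286 FPKM with brivanib and 137 to 245 with vehicle. Of 12 macrophage markers, 3 rose (Cd163, Marco and Cd68) and the sum was 367.1 to 444.7 FPKM with brivanib and 120.4 to 222.0 with vehicle. Of 5 tested mast cell markers, 4 rose (Tpsb2, Cpa3, Cma1 and Mcpt4). Of 10 tested endothelial and 5 tested neutrophil markers 0 were called, with median log2 fold changes of -0.09 and 1.25. With limma voom 4 of the fibroblast, 1 of the macrophage and 1 of the mast cell markers were called. All 4 of these mast cell markers, Marco, Pi16, Clec3b and Fbln1 averaged below 1 FPKM outside the brivanib group, so they too reached the tests only through it. Skeletal muscle markers summed to 1.537 FPKM in brivanib 2, 328.2 in brivanib 3 and 286.7 in brivanib 5. The highest Mmp2, Timp1, Timp3, Adamts2 and Mmp23 values of all libraries were in brivanib 2. With the mean of the skeletal muscle list as a covariate, the log2 differences were 3.09 for Mmp2, 1.82 for Adamts2, 1.48 for Timp3 and 1.96 for Timp1, and with that of the adipocyte list they were 2.70, 1.70, 1.33 and 1.91. Without a covariate they were 3.11, 1.84, 1.36 and 1.70. With either covariate the limma adjusted p of Mmp2, Adamts2 and Timp3 was 0.0536 to 0.0774, and only Timp1 still passed. The calls among all genes were 258 without a covariate, 61 with the muscle and 94 with the adipocyte covariate. The fibroblast mean separated the brivanib libraries from all 9 others, so brivanib and this marker level cannot be told apart in these data. The part of these cell types in the protease values was not tested.

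With the combination, other members passed against vehicle. Mmp12, the macrophage elastase, fell to 0.251 times the vehicle mean, and Mmp19, a protease with broad basement membrane substrates, rose 2.13 times. Of the 29 tested members these 2 passed, 1 higher and 1 lower, against 2.34% of all genes in either direction, 1.82% higher and 0.519% lower (limma, adjusted p below 0.05). The median log2 fold change of the tested members was 0.05, against 0.04 for all genes. Adipocyte markers summed to 113.4 to 353.8 FPKM with the combination and 39.22 to 41.02 with vehicle, and with their mean as a covariate 1 gene of all tested was called, against 333 without it, and 0 of the 29 members.

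Mmp12 lies on chromosome 9 (7344381 to 7369499, plus strand). It was at 18.2, 16.8 and 19.2 FPKM with vehicle and 4.49, 4.03 and 5.08 with the combination, or 18.1 ± 1.18 against 4.53 ± 0.522 (n = 3 each). All 3 combination libraries lay below all 9 others, whereas the cisplatin (7.46, 17.1 and 7.69) and brivanib (22.3, 6.59 and 18.02) libraries spread widely. The log2 fold change was -1.79 ± 0.37 (limma adjusted p = 0.0324). The summed FPKM of the 12 macrophage markers was 102.8 to 309.4 with the combination and 120.4 to 222.0 with vehicle, and Cd163 rose while no other marker of the list passed. The call was lost without any 1 of the vehicle or combination libraries (adjusted p = 0.0514 to 0.108), with differences of -1.72 to -1.86.

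Mmp19 lies on chromosome 10 (128790910 to 128800824, plus strand). It was at 6.73, 7.11 and 4.18 FPKM with vehicle and 11.7, 13.6 and 13.1 with the combination, and the cisplatin (10.9, 5.96 and 9.20) and brivanib (9.32, 6.48 and 9.07) libraries overlapped with vehicle. The combination libraries were the 3 highest of the 12, and the log2 fold change was 1.0 ± 0.22 (limma adjusted p = 0.039). Of its 3533 annotated exon bases, 789 are also exon of Tmem198b on the opposite strand, which ran from 6.21 to 8.36 FPKM with vehicle and 7.73 to 10.4 with the combination. The call was lost in 16 of 24 alternative settings, among them 3 other scalings of the libraries and leaving out any vehicle or combination library, cisplatin 3 or brivanib 5 (adjusted p = 0.0503 to 0.122).

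Mmp13, an interstitial collagenase, was at 6.61, 12.1 and 6.88 FPKM with vehicle and 2.54, 3.69 and 2.54 with the combination. It did not pass (log2 fold change -1.25 ± 0.39, limma adjusted p = 0.111). Of the genes that rose with brivanib alone, Mmp2 differed from vehicle in the combination by 1.5 ± 0.48, Timp3 by 0.71 ± 0.21, Timp1 by 0.59 ± 0.25, Mmp23 by 0.66 ± 0.36 and Adamts2 by 0.28 ± 0.27 on the log2 scale, and these did not pass (limma adjusted p = 0.116, 0.0989, 0.227, 0.363 and 0.623). Mmp2 was at 10.7, 8.68 and 11.1 FPKM with the combination and 3.51, 0.922 and 5.98 with vehicle. Mmp8, the collagenase of neutrophils, was at 15.8 FPKM in combination 3 and at 0.321 to 2.06 in the other 11 libraries. The summed neutrophil markers were 114.5 FPKM in combination 3, 15.51 and 17.08 in combination 2 and 4, and 143.3 in brivanib 5. Mmp8 was at 1.75 in brivanib 5. Of the tested markers, Retnlg was at 28.91 FPKM in combination 3 and 8.372 in brivanib 5. The others, S100a8, S100a9, Csf3r and Cxcr2, were higher in brivanib 5, with S100a9 at 44.61 in combination 3 and 78.23 in brivanib 5. The part of neutrophils in the Mmp8 value was not tested. In all, 10 of the 29 tested members had an unadjusted p below 0.05.

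Adding cisplatin to brivanib was compared next, as the combination against brivanib alone. Timp1 and Adamts2 fell, to 0.442 and 0.237 times the brivanib mean, and no member rose. These 2 of 29 passed, against 3.87% of all genes in either direction and 1.85% lower (limma, adjusted p below 0.05). The brivanib libraries that entered the comparison with vehicle are used here as well, so the 2 comparisons share them. Timp1 differed by -1.11 ± 0.25 (limma adjusted p = 0.0322) and Adamts2 by -1.56 ± 0.27 (limma adjusted p = 0.0139). Each combination library was below each brivanib library for both genes: the highest combination value of Timp1 was 77.0 FPKM against a lowest brivanib value of 100, and for Adamts2, at 1.74, 0.980 and 1.76 with the combination, these were 1.76 and 5.60. Mmp2, Timp3 and Mmp23 had log2 differences of -1.61 ± 0.48, -0.66 ± 0.21 and -1.13 ± 0.36 that did not pass (limma adjusted p = 0.0838, 0.103 and 0.101). Mmp23 reached the tests only through its brivanib libraries. Nearer the threshold were Mmp12 at -1.44 ± 0.37 and, in the other direction, Adamtsl5 at 0.49 ± 0.13 (limma adjusted p = 0.0533 and 0.0598). Mmp12 passed under 4 alternative settings, among them without brivanib 3 (-1.93, adjusted p = 0.0113) and without cisplatin 2 (-1.44, adjusted p = 0.0376).

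The Timp1 call was lost without vehicle 2, brivanib 2, brivanib 5 or any 1 of the combination libraries (adjusted p = 0.0503 to 0.119), and the Adamts2 call without combination 3 (adjusted p = 0.0678). With the replicate number as a block both were lost (limma adjusted p = 0.0665 for Timp1 and 0.0631 for Adamts2). Timp1 was also lost with no filter on low values, with equal FPKM totals, with only the groups compared and with the adipocyte covariate (adjusted p = 0.0539 to 0.133). Tests on recovered fragments with limma voom called 4 members lower, adding Adamts9 at -1.22 and Mmp2 at -1.82 to Adamts2 and Timp1. In these libraries 5 of 12 tested fibroblast markers fell (Pi16, Clec3b, Fbln1, Thy1 and Pdgfrb), as did 4 of 5 mast cell markers and 1 of 12 macrophage markers, Marco. Of all tested genes, 1.85% were called lower in this comparison. Pi16, Clec3b, Fbln1, Marco and the 4 mast cell markers averaged below 1 FPKM outside the brivanib group. They reached the tests only through that group, so the filter favoured a fall from it. The fibroblast mean again separated the brivanib from the combination libraries, so its part in the Timp1 and Adamts2 values cannot be told apart from the treatment.

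**Figure D3:**
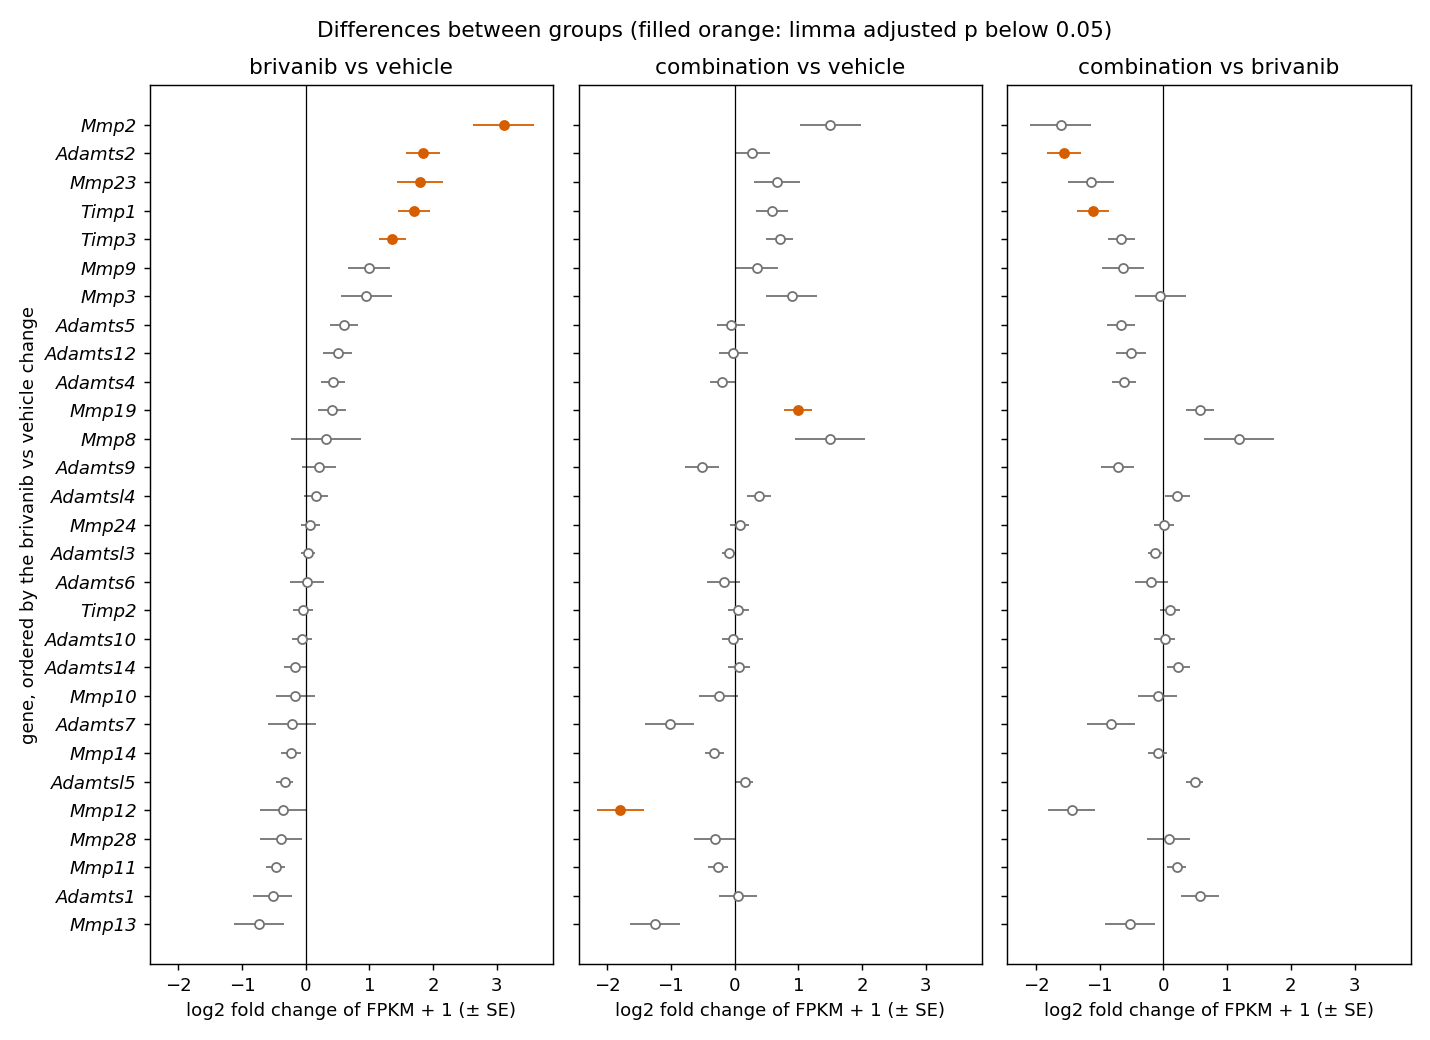
Log2 fold change of FPKM + 1 with its SE for the 29 tested genes in 3 comparisons, with genes ordered by the brivanib vs vehicle change and filled orange points for limma adjusted p below 0.05. Mmp2, Adamts2, Mmp23, Timp1 and Timp3 lead the left panel, Mmp19 and Mmp12 are filled in the middle one, and Adamts2 and Timp1 on the negative side of the right one.

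Whether the effect of brivanib depended on cisplatin was asked with the interaction, the combination minus cisplatin minus brivanib plus vehicle. No member passed (0 of 29 with limma and 0 with limma voom, 7 at an unadjusted p below 0.05), against 0.140% of all genes. The smallest adjusted p values were 0.0778 for Adamts2, with a difference of differences of -1.97 ± 0.38, and 0.0816 for Timp1, with -1.77 ± 0.35. Mmp2 had -2.83 ± 0.67 (limma adjusted p = 0.136). Adamts2 passed without cisplatin 2 (-2.23, adjusted p = 0.0463) and Timp1 without brivanib 3 (-2.06, adjusted p = 0.0377).

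Cisplatin alone gave no call. Of the 29 tested members, 0 passed against vehicle with limma and 0 with limma voom, with 5 at an unadjusted p below 0.05 and 0.190% of all genes called. Those 5 were Timp1 (0.66 ± 0.25), Timp3 (0.55 ± 0.21), Mmp2 (1.23 ± 0.48), Mmp3 (0.94 ± 0.40) and Mmp11 (-0.36 ± 0.15), on the log2 scale, and Timp1 had the smallest adjusted p at 0.25. For Timp1 the lowest cisplatin value was 62.2 FPKM and the highest vehicle value 57.7. Against the same cisplatin libraries the combination gave 0 of 29 calls with limma and 0 with limma voom, 3 at an unadjusted p below 0.05 (Mmp8, Mmp12 and Mmp19), and 0% of all genes called. The smallest adjusted p was 0.694, for Mmp8.

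The 9 neighbouring Mmp genes on chromosome 9 did not share a level or a direction. Mmp3, the stromelysin that cuts many matrix proteins and other pro-Mmp enzymes, was the most abundant of them at 17.5 to 80.7 FPKM. It was at 17.5, 37.0 and 26.2 FPKM with vehicle, 51.5, 80.7 and 30.7 with cisplatin, 72.9, 29.1 and 61.2 with brivanib and 59.8, 57.4 and 34.2 with the combination. Its differences from vehicle were 0.94 ± 0.40, 0.95 ± 0.40 and 0.90 ± 0.40 on the log2 scale for the 3 treatments, none of which passed (limma adjusted p = 0.312, 0.375 and 0.257). Mmp13 had the opposite sign in each, with -0.71 ± 0.39, -0.73 ± 0.39 and -1.25 ± 0.39. All 3 treatments are compared with the same vehicle libraries. Both genes carry an AP-1 and a TATA word close to the start in the sequences above. Mmp10 ranged from 0.764 to 2.63 FPKM, Mmp27 from 0.205 to 1.89 and Mmp1b from 0 to 1.01, and Mmp20 and Mmp7 were listed at 0.

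**Figure D4:**
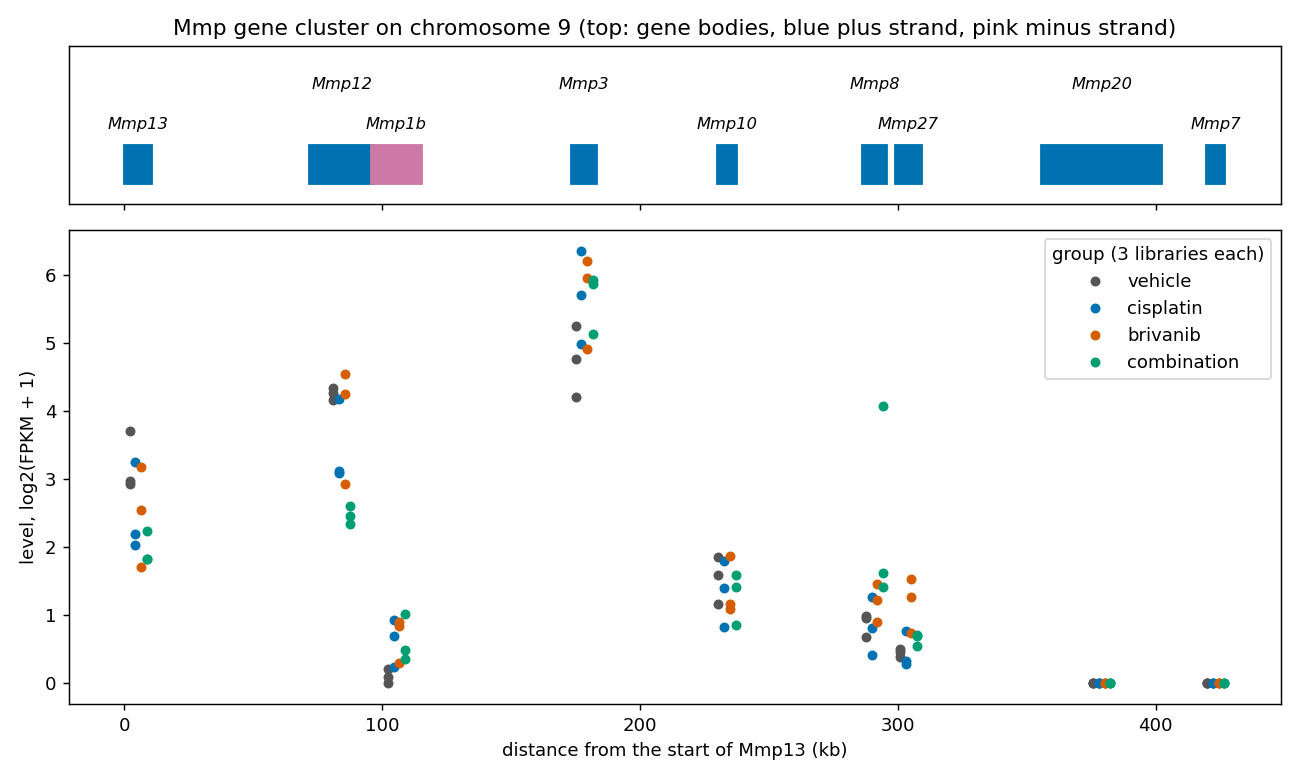
Top, the 9 Mmp genes of the chromosome 9 cluster by distance from the start of Mmp13 in kb (blue plus strand, pink minus strand, with Mmp1b drawn over the end of Mmp12). Bottom, log2(FPKM + 1) of each gene in the 3 libraries of each group, where Mmp12 and Mmp13 are low in the combination, Mmp3 is low in vehicle, 1 combination library is high for Mmp8, and Mmp20 and Mmp7 are at 0.

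Ratios of 2 genes within a library do not depend on how that library was scaled, and 4 pairs are shown that were chosen after the values were seen. The Timp1 to Timp2 ratio was 0.285 to 0.545 with vehicle and 0.710 to 1.88 with brivanib, so that Timp1 exceeded Timp2 in brivanib 2 and brivanib 5. The Mmp2 to Mmp14 ratio was 0.00425 to 0.0295 with vehicle, 0.0208 to 0.0822 with cisplatin, 0.149 to 0.186 with brivanib and 0.0528 to 0.0591 with the combination. Adamts2 to Adamts14 was 0.0488 to 0.175 with vehicle and 0.493 to 0.701 with brivanib. Mmp3 to Mmp13 was 2.65 to 3.81 with vehicle and 8.60 to 23.6 in the 9 treated libraries, without overlap. These ratios are descriptions and carry no test.

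**Figure D5:**
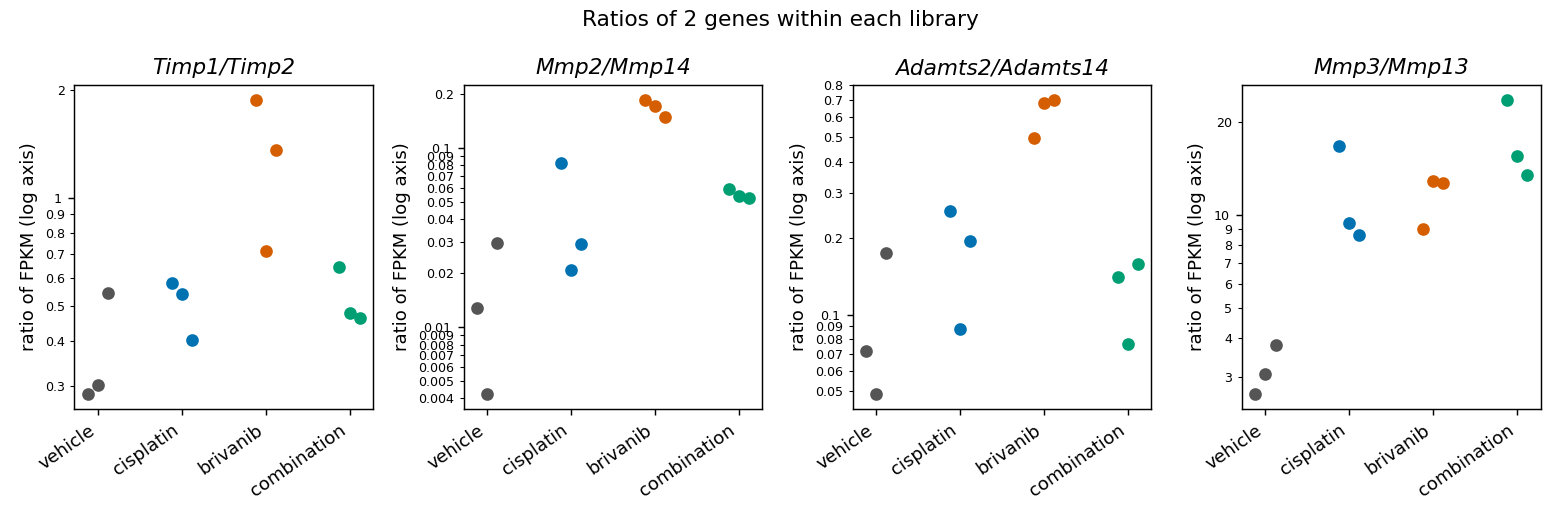
Ratio of the FPKM of 2 genes within each library, on a log axis, for Timp1 to Timp2, Mmp2 to Mmp14, Adamts2 to Adamts14 and Mmp3 to Mmp13 in the 4 groups. The brivanib libraries are highest in the first 3 panels, and the vehicle libraries are lowest in the Mmp3 to Mmp13 panel.

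The other tested members did not pass in any comparison. Among Adamts genes, Adamts10 ran from 5.73 to 8.33 FPKM, Adamts6 from 1.73 to 5.94, Adamts9 from 0.843 to 3.11 and Adamts7 from 0.487 to 3.85. Adamts7, which cleaves the cartilage protein COMP, was at 1.10, 2.70 and 3.15 FPKM with vehicle and 0.542, 0.666 and 0.487 with the combination (log2 difference -1.02 ± 0.38, limma adjusted p = 0.17). Mmp24, a membrane-bound protease, ran from 2.93 to 4.22 FPKM and Mmp28, also called epilysin, from 1.07 to 3.98.

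Among the 5 members that reached 1 FPKM only in some libraries, Mmp15 ran from 0.292 to 1.65 FPKM, with its 3 lowest values in the combination. Adamts15 was at 0, 0 and 0.0791 FPKM with vehicle and 1.31, 0.983 and 1.04 with brivanib. Adamtsl1 was at 0, 0 and 0.0532 FPKM with vehicle and 2.27, 0.961 and 1.84 with brivanib. When the tests were run with no filter on low values, both passed in brivanib against vehicle (1.04 and 1.37 on the log2 scale, limma adjusted p = 0.00337 and 0.0204) and in the combination against brivanib (-0.82 and -1.18, limma adjusted p = 0.0117 and 0.0341). The summed Adamtsl1 FPKM came to 27.2% from a protein-coding transcript of 7839 bases. A retained intron of 459 bases gave 26.7% and a protein-coding transcript of 729 bases gave 24.0%. The 13 members below 1 FPKM in every library were Mmp25, Mmp17, Mmp16, Mmp21, Timp4, Adamtsl2, Adamts3, Adamts8, Adamts13, Adamts16, Adamts17, Adamts18 and Adamts20. Timp4 was listed at 0 in the 9 libraries outside the combination and at 0.0918, 0.235 and 0.101 FPKM within it. These values rest on 11, 20 and 10 fragments. Timp4 also lies inside Syn2 on the opposite strand, which ran from 0.0577 to 0.364 FPKM with the combination. Mmp25 was the highest of the 13, at 0.550 to 0.727 FPKM with brivanib and 0.0252 to 0.247 with vehicle.

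Other proteases and the substrates were taken from lists chosen with earlier results of these data known. In brivanib against vehicle, 2 of 12 tested cathepsin and legumain genes rose, Ctsk and Ctsh. Ctsk, which encodes a collagen-degrading enzyme, rose from 1.92 ± 0.684 to 14.3 ± 1.79 FPKM (n = 3, limma adjusted p = 0.000928). Of 7 tested membrane ADAM proteases, Adam12 and Adam19 rose. A further list held astacin, HtrA, FAP and PAPP proteases, procollagen C-proteinase enhancers and proprotein convertases. Of its 9 tested genes, Htra3 and the convertase gene Pcsk5 rose. Of 5 tested other inhibitors, Tfpi2 rose. Of 13 tested substrates 4 rose, Fbn1, Col1a1, Col1a2 and Eln, which encode fibrillin, the chains of type I collagen and elastin, with Col1a1 at 13.8 ± 14.5 FPKM with vehicle and 314 ± 145 with brivanib (limma adjusted p = 0.0118). None of the members of these lists fell. Of all tested genes, 1.71% were called higher in this comparison. With limma voom 2 cathepsins, 2 ADAM proteases, 1 gene of the list that holds Htra3 and Pcsk5, 1 other inhibitor and 3 substrates were called. Adam12, Pcsk5 and Eln averaged below 1 FPKM outside the brivanib group and reached the tests only through it.

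In the combination against brivanib, 6 of the 13 substrates fell (Dcn, Fbn1, Fn1, Eln, Col3a1 and Col1a1), as did Ctsc, Adam12, Adam19, Htra3 and Pcsk5, beside the 1.85% of all genes called lower in this comparison. Among these, Eln, Adam12 and Pcsk5 reached the tests only through the brivanib group, so the filter favoured a fall from it. With limma voom 4 of the 13 substrates were called. In the combination against vehicle, 1 of 12 tested cathepsin and legumain genes (Ctsk) and 1 of 7 tested membrane ADAM proteases (Adam9) rose. Of the 13 substrates 1 fell, Dcn, the proteoglycan decorin, from 135 ± 5.97 to 60.9 ± 16.1 FPKM (limma adjusted p = 0.0147). Dcn was at 85.95, 55.89 and 71.52 FPKM with cisplatin alone, where it did not pass. Among all tested genes, 1.82% were called higher and 0.519% lower in the combination against vehicle. Of 10 tested genes of plasminogen activation, a cascade that can activate Mmp precursors, and of 15 tested inducers of Mmp genes such as Fos, Jun and Il1b, 0 passed in any comparison with limma and 0 with limma voom, with 1 to 5 and 0 to 4 at an unadjusted p below 0.05 per comparison.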

How the data were processed

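RNA from 12 tumours, 3 per group, was sequenced on a BGISEQ-500, and per the series' design text reads were aligned with Bowtie2 and FPKM were estimated with RSEM. The submitters' processing notes name HISAT, Bowtie, Bowtie2 2.2.5 and RSEM 1.2.12. The design text and the notes name different genome builds, and of the members' 195 transcripts all were found in GENCODE release 21 (GRCm38), 190 with identical coordinates. The authors deposited FPKM per transcript, and these were summed here per gene over Ensembl transcripts. 3 broken lines were dropped, and 1 column that matches no sample label was not used. FPKM times transcript length gave whole fragments (within 0.01, values up to 100 fragments) for 100% of values in each library, so depth could be recovered.

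Group means over the 12 libraries were fitted with limma 3.58.1 (R 4.3.3, trend) on log2(FPKM + 1), which understates changes of low genes, for the 14246 genes with a mean of at least 1 FPKM, with 8 residual degrees of freedom, two-sided tests and Benjamini-Hochberg adjustment over all of them. The script was tested on simulated data. Alternatives were pseudocount, filter, scaling, limma voom on recovered fragments with library sizes scaled by median of ratios (chosen after seeing the data in place of TMM), a replicate block, marker covariates and leaving out each library. Replicates of a group differed by more than sampling noise (chi-square per degree of freedom of at least 23.8). Members at a mean of at least 1 FPKM were all named, with every library's value where a comparison passed or the level was among the 4 highest, and from other lists up to 4 called genes were named by the size of the test statistic, all called substrates and fibroblast markers being named beyond that rule. The members and lists were chosen with earlier results of these data known. Mmp1a, a polymorphic pseudogene in the table, is no member.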

Additional observations from a re-analysis of the deposited data

Results flagged for a closer look

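For 4 genes outside the protease families, named above as a membrane ADAM protease and fibroblast markers, the interaction of brivanib and cisplatin passed the test. All 4 averaged below 1 FPKM outside the brivanib group (0.859 for Adam12, 0.253 for Clec3b, 0.443 for Fbln1 and 0.395 for Pi16), so they reached the tests only through the group where they were high. The differences of differences on the log2 scale were -2.20 ± 0.35 for Adam12 (SE, limma adjusted p = 0.0411), -2.61 ± 0.37 for Clec3b (limma adjusted p = 0.0245), -3.00 ± 0.45 for Fbln1 (limma adjusted p = 0.0275) and -3.40 ± 0.41 for Pi16 (limma adjusted p = 0.0129). None of the 4 passed with a pseudocount of 0.1 (limma adjusted p = 0.134 to 0.233), with limma voom (0.102 to 0.264), with the replicate block (0.0778 to 0.174), or with the skeletal muscle covariate (0.0671 to 0.234). Leaving out 1 library ended the call of Pi16 only without vehicle 3 (limma adjusted p = 0.0554) and gave up to 0.134, 0.0983 and 0.101 for Adam12, Clec3b and Fbln1. Of all tested genes, 20 passed this interaction test, against 0 with a pseudocount of 0.1 or limma voom and 1 with the replicate block. Adam12 was at 5.11 to 5.82 FPKM in the brivanib libraries and at 0.210 to 1.70 in the other 9. Pi16 was at 7.49 to 13.4 FPKM with brivanib and at 0 to 1.22 in the others. No group of 4 or more libraries exists, so single libraries were not tested for standing apart.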

How the results depend on the processing

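Against a count of 5 members in brivanib vs vehicle, 3 passed with a mean of at least 5 FPKM (fewer genes were tested), 1 with the skeletal muscle and 1 with the adipocyte list as a covariate, and 0 with the fibroblast list as a covariate, which was chosen after seeing the data. Over all genes the calls were 258, and 61, 94 and 0 with these 3 covariates; the Mmp2 and Adamts2 differences were 3.09 and 1.82 with the muscle and 2.70 and 1.70 with the adipocyte covariate, against 3.11 and 1.84. The fibroblast mean sets the brivanib libraries apart from all others. Under that last setting the log2 differences of Mmp2 and Mmp23 over vehicle turned to -0.20 and -0.04, and that of Adamts2 in combination vs brivanib to 0.01. In combination vs vehicle (2 members), 0 passed with no filter, with the replicate block or with the adipocyte covariate, and 1 with equal FPKM totals, with ribosomal-like features removed, with median-of-ratios scaling or with limma voom. In combination vs brivanib (2 members), 1 passed with a mean of at least 5 FPKM or with equal FPKM totals, 4 with limma voom, and 0 with the replicate block or the fibroblast covariate. Leaving out 1 library at a time gave 4 to 5 calls in brivanib vs vehicle, 0 to 2 in combination vs vehicle, 0 to 3 in combination vs brivanib, 0 to 1 in the interaction and 0 in both other comparisons. With the replicate block the 5 brivanib calls remained, and Mmp12, Mmp19, Adamts2 and Timp1 in the combination comparisons had limma adjusted p = 0.0782, 0.164, 0.0631 and 0.0665. The labels do not say whether same-numbered libraries belong together. Over 13 pairs of such libraries the correlation of their deviations from group means was -0.16 to 0.21. This does not settle whether they shared a handling step. Rescaling to equal FPKM totals gave a median over all genes of -0.34 in brivanib vs vehicle (-0.01 before) and 0.31 in combination vs brivanib (0.04 before), because brivanib 5 carries a large ribosomal-like share. The cause of the other changes was not tested. Limma voom with TMM was planned and not run. Depth limits the low members: Mmp23 rests on 0 to 165 fragments per library.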
